A study of Mus musculus with 14 samples.

Results

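Podocyte and glomerular basement membrane genes were described in bulk RNA-seq of whole mouse kidneys. The 30 genes were chosen by symbol from 2 deposited tables, which hold 23286 genes once repeated identifiers are merged. All 30 were found in both tables. They fall into 7 roles: slit diaphragm, apical surface, transcription and cell cycle, cytoskeleton, signalling, basement membrane and matrix receptor.

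The kidneys came from 9-week-old mice and were taken 5 h after ischemia-reperfusion (IR) injury, in which the blood supply is clamped and released, or after sham surgery. The 12 libraries form 4 groups of 3: VE-PTPiKO kidneys after IR, VE-PTPiKO kidneys after sham surgery, Control kidneys after IR and Control kidneys after sham surgery. VE-PTP is the vascular endothelial protein tyrosine phosphatase, encoded by Ptprb, which dephosphorylates the endothelial receptor Tie2. The labels give neither the strain of these mice, nor the driver or deleted exons of the VE-PTPiKO allele, nor whether each library is a separate animal. The p-values therefore measure the spread between these libraries, which may be technical. The series has 2 further samples, single-cell libraries of vehicle-treated and Hepta-ANG1-treated kidneys, which were not analysed here.

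Podocytes are the epithelial cells that wrap the capillaries of the glomerulus, the kidney's filter. Their foot processes interlock, and the slits between them are bridged by a diaphragm of nephrin and related adhesion proteins that is anchored to the actin cytoskeleton. Below them lies a basement membrane whose mature network is built of type IV collagen chains encoded by Col4a3, Col4a4 and Col4a5 and of laminin containing the products of Lama5 and Lamb2. Inherited defects of many of these genes cause proteinuria in humans, and loss of podocyte gene expression is a common feature of glomerular injury.

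Each library held 15427887 to 21296392 reads counted in genes. Levels are given in CPM, the reads of a gene scaled to a common total of reads in genes per library. Ptprb had 75.0 to 126 CPM in VE-PTPiKO IR libraries and 117 to 162 CPM in VE-PTPiKO sham libraries, against 112 to 159 CPM in Control IR libraries and 168 to 246 CPM in Control sham libraries. Its difference between genotypes did not pass limma's test (log2 fold change -0.45 after IR and -0.43 after sham surgery, adjusted p = 1 for both), and counts over the whole gene include any reads from outside the deleted exons. The kidney's proximal tubule markers summed to 16930 to 24900 CPM over the 12 libraries. In 3 libraries the nuclear-retained RNA Malat1 took a larger share of reads, 1.96% in VE-PTPiKO IR replicate 3, 1.15% in VE-PTPiKO sham replicate 2 and 1.02% in Control sham replicate 2, against 0.327% to 0.564% in the other 9. The deviation of each gene from its mean over the 3 libraries of the same group was set against exon length. Across 13701 genes, which are not independent replicates, Spearman's rho was 0.48, 0.31 and 0.47 in these 3 libraries. In the other 9 it ran from -0.44 in VE-PTPiKO IR replicate 1 to 0.26 in Control IR replicate 3. The deviations of a gene sum to 0 within a group, so a positive trend in 1 library pulls its group mates down. The negative values beside the 3 thus cannot be told apart from that pull. In VE-PTPiKO sham, rho was -0.4 in replicate 1, 0.31 in replicate 2 and 0.19 in replicate 3. Control IR, which holds none of the 3, ran from -0.2 to 0.26, so some trend on length was also present there. The median exon length was 6.28 kb for the 30 genes and 4.16 kb for 16339 genes tested. VE-PTPiKO IR replicate 3 was the highest library of its group for 24 of the 30 genes, against 47.9% of all genes. VE-PTPiKO sham replicate 2 was the highest of its group for 12, against 39.7% of all genes, and VE-PTPiKO sham replicate 3 for 13, against 19.5%. Control IR replicate 3 was so for 19, against 43.9%, and Control sham replicate 2 for 20, against 42.6%. Results that change without these libraries are given with and without them. In whole kidneys, fewer podocytes and less RNA per podocyte cannot be told apart.

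At 5 h after injury most podocyte identity genes did not pass the test against sham, while several genes for the actin cytoskeleton and its link to the matrix were higher. In VE-PTPiKO kidneys 1 of the 30 genes rose after IR and 0 fell, by limma at an adjusted p under 0.05 over all 16401 genes tested. The shares of all genes called in that comparison were 1.92% up and 0.793% down. At an unadjusted p under 0.05 by limma there were 7 of the 30 and 2485 of the 16401 genes. There edgeR called Myo1e alone, beside 330 up and 126 down of 16401 genes. DESeq2 called 3 of the 30 up (Myo1e, Itga3 and Nes) and 2 down (Col4a3 and Sema3g). Over 14173 genes DESeq2 called 622 up and 391 down. In Control kidneys 5 of the 30 rose and 1 fell, against 7.48% up and 4.02% down of 16257 genes. An unadjusted p under 0.05 by limma was found there for 9 of the 30 and 3927 of all genes. The risen genes were Myo1e, which encodes a membrane-binding class I myosin, in both genotypes, and Itga3, Nes, Actn4 and Cd2ap in Control kidneys. The gene that fell in Control kidneys was Sema3g, which encodes a secreted class 3 semaphorin. The median log2 fold change of the 30 genes was 0.08 in VE-PTPiKO kidneys and 0.04 in Control kidneys, beside medians over all genes tested of -0.01 in each. The median size of the change, sign aside, was 0.20 for the 30 genes and 0.24 for all genes in VE-PTPiKO kidneys, and 0.23 and 0.24 in Control kidneys. The authors' deposited table, made with another test, has 3 of the 30 up and 2 down at its adjusted p under 0.05 in VE-PTPiKO kidneys. It has 7 up and 2 down in Control kidneys. How many of all genes it calls was not counted here, so these numbers have no share beside them. Its calls beyond those of limma were Itga3, Nes, Col4a3 and Sema3g in VE-PTPiKO kidneys, and Clic5, Npnt and Cdkn1c in Control kidneys.

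The 3 IR libraries were also compared with the 3 sham libraries by whether they overlapped. In VE-PTPiKO kidneys 7 genes lay wholly above sham and 2 wholly below, where 12.7% and 7.48% of all genes did so. In Control kidneys 7 lay above and 2 below, where 17.4% and 11.9% of all genes did. Cd2ap, Actn4, Myo1e, Nes, Clic5 and Itga3 lay above in both genotypes, with Trpc6 in VE-PTPiKO kidneys and Lmx1b in Control kidneys. Sema3g lay below in both, with Col4a3 in VE-PTPiKO kidneys and Cdkn1c in Control kidneys.

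**Figure D1:**
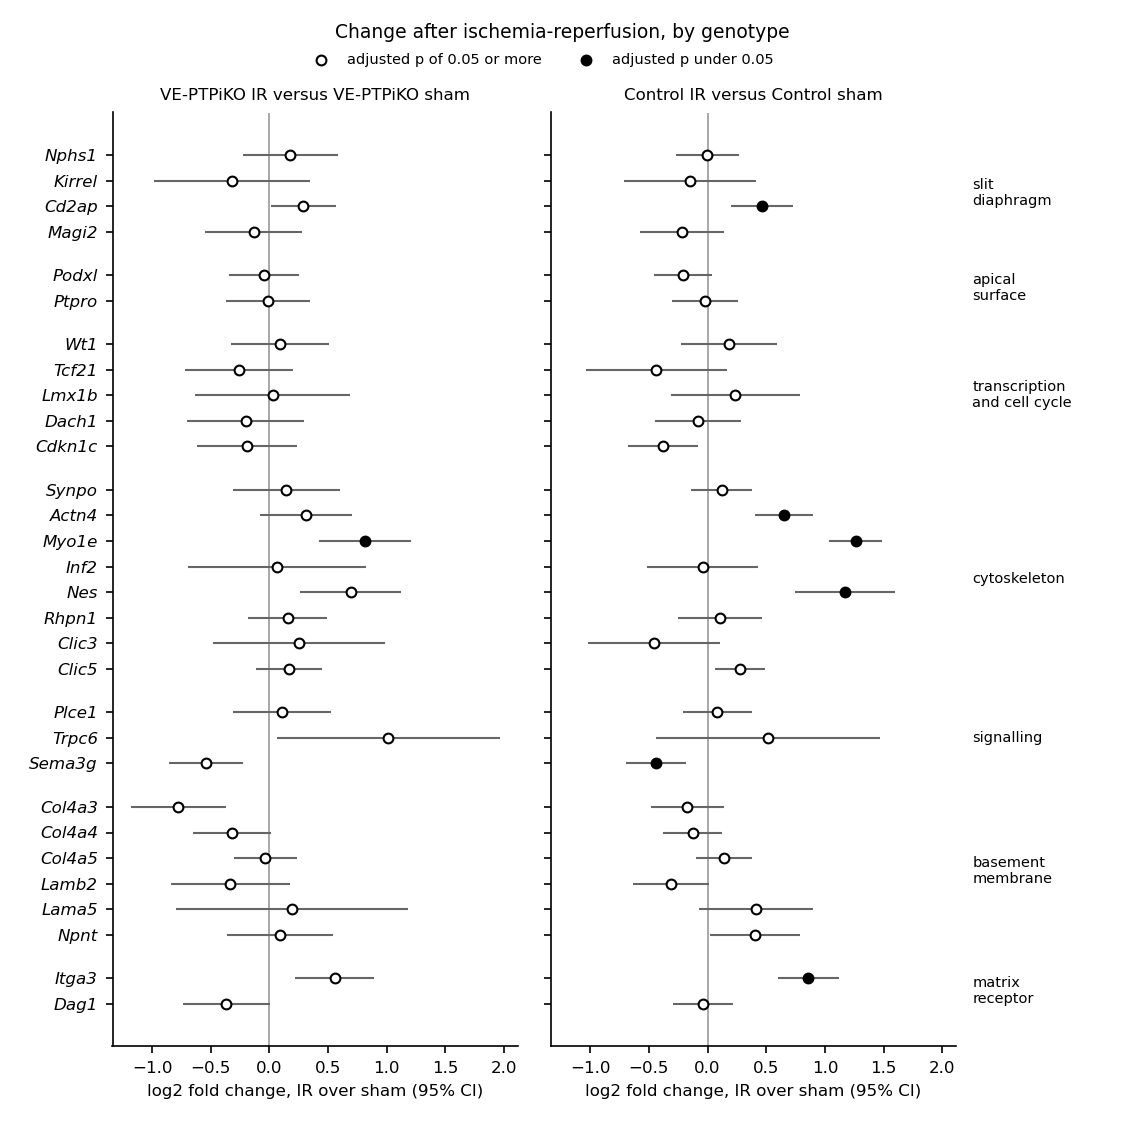
Fitted log2 fold change of IR over sham with its 95% confidence interval for each of the 30 genes, in VE-PTPiKO kidneys (left) and Control kidneys (right), n = 3 libraries a group, with filled points for an adjusted p under 0.05. Myo1e is filled in both panels, at 0.82 and 1.26, and the intervals of Nphs1, Podxl and Wt1 include 0 in both.

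The promoter windows of 3 called genes and the DNA between the paired collagen genes were read from RefSeq (build GRCm38.p6), to show the sequence before the starts of called genes and the interval that Col4a3 and Col4a4, which did not pass the test, share. Each runs 5′ to 3′ on the strand named, and the first 3 run up to the annotated RefSeq transcript start. Capitals mark searched motifs.
Myo1e, chr9:70207100-70207349, plus strand: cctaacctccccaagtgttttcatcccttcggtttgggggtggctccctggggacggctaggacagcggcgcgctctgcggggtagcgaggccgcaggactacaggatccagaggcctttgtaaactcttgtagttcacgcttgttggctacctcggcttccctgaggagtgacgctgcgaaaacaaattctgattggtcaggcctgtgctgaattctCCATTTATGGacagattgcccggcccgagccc
Cd2ap, chr17:42876425-42876674, minus strand: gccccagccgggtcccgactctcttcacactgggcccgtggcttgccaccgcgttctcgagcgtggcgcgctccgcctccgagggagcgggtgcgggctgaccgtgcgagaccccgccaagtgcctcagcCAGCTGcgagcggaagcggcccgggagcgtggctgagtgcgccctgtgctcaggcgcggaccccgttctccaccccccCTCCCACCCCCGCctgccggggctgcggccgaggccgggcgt
Sema3g, chr14:31217623-31217872, plus strand: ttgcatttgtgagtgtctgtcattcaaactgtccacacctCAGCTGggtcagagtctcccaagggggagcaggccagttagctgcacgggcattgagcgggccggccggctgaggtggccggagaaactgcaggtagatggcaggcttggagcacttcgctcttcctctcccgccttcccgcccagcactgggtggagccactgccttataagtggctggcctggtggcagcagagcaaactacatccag
Col4a3-Col4a4 interval, chr1:82586850-82586919, minus strand: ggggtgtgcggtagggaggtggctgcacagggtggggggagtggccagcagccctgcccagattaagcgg

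The capitals in Myo1e are a CArG box, the recognition element of serum response factor, a motif added after the sequences had been seen. The element occurred in 8.33% of the 24 of 30 genes with a promoter in the table, Myo1e and Trpc6, and in 1.81% of 27025 genes. In Cd2ap the capitals are CAGCTG, the E-box form bound by TCF21, and, read on the opposite strand, a pair of WT1 site elements (GTGGGAG in one case, GCGGGGG in the other) that share a base here. In Sema3g they are CAGCTG. Both strands of windows of 250 bases before and 50 after the start were searched. GTGGGAG was in 20.8% of the 24 genes and 11% of all genes. GCGGGGG was in 12.5% of the 24 and 12% of all genes. CAGCTG was in 12.5% and 18.3%, and the LMX1B motif TAATTA in 4.17% and 6.12%. The AP-1 site TGACTCA was in 0 of the 24 and in 5.95% of all genes. The TATA box TATAAA was in 0 of the 24 and in 15.7% of all genes. These matches describe the letters only.

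Slit diaphragm genes divided between a scaffold that rose in Control kidneys and 3 genes that did not pass the test. Nphs1 encodes nephrin, the adhesion protein that spans the slit. Nphs1 had 28.6, 31.1 and 30.1 CPM in VE-PTPiKO IR libraries and 26.5, 20.8 and 29.9 CPM in VE-PTPiKO sham libraries. For Control kidneys the values were 25.0, 29.0 and 30.5 CPM after IR and 25.7, 27.5 and 29.6 CPM after sham surgery. All 4 groups overlapped. The log2 fold change after IR was 0.18 in VE-PTPiKO kidneys (95% confidence interval -0.23 to 0.58, adjusted p = 0.714) and -0.00 in Control kidneys (-0.27 to 0.27, adjusted p = 0.997). An antisense RNA, Nphs1os, and a pseudogene overlap 11.8% of the Nphs1 exons, and whether the authors counted reads by strand is not stated in what was used here, so the genes cannot be told apart there.

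Cd2ap (chr17:42792950-42876424) encodes the adaptor that ties nephrin to actin. Its level was 152, 155 and 167 CPM in VE-PTPiKO IR libraries and 130.1, 117 and 127 CPM in VE-PTPiKO sham libraries. In Control kidneys it was 140.1, 163 and 193 CPM after IR and 107, 119 and 124 CPM after sham surgery. In both genotypes the lowest IR library lay above the highest sham library. The rise in Control kidneys was 1.38-fold (log2 0.46 ± 0.12 SE, limma adjusted p = 0.0309). It did not pass without Control IR replicate 2 (adjusted p = 0.126), Control IR replicate 3 (0.135) or Control sham replicate 1 (0.0886), among alternatives that ran from 0.00911 to 0.135. In VE-PTPiKO kidneys the log2 fold change was 0.29 (adjusted p = 0.303). Kirrel, which encodes nephrin's partner Neph1, ranged from 11.9 to 29.8 CPM over the 12 libraries, and Magi2, a slit diaphragm scaffold, from 13.5 to 21.1 CPM. Neither passed the test in either genotype, and their groups overlapped.

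Neither apical surface gene passed the test in either genotype. Podxl encodes podocalyxin, the negatively charged sialomucin that coats the foot processes. Podxl had 178, 206 and 214 CPM in VE-PTPiKO IR libraries and 195, 189.6 and 207 CPM in VE-PTPiKO sham libraries. After IR and sham surgery, Control kidneys had 161, 176 and 203 CPM and 183, 221 and 205 CPM. The IR and sham libraries overlapped in both genotypes (log2 -0.04, adjusted p = 0.922, in VE-PTPiKO kidneys and -0.21, adjusted p = 0.291, in Control kidneys). Podxl is also made by endothelial cells. Ptpro, a receptor tyrosine phosphatase of the podocyte surface, had 17.7 to 25.1 CPM over all libraries and log2 fold changes of -0.01 and -0.02.

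None of the 5 transcription and cell cycle genes passed the test in either genotype. Wt1, the zinc finger factor that maintains podocyte identity, had 7.35, 8.0 and 9.72 CPM in VE-PTPiKO IR libraries and 7.94, 8.24 and 6.49 CPM in VE-PTPiKO sham libraries. In Control kidneys Wt1 had 9.07, 7.62 and 10.2 CPM after IR and 6.72, 7.48 and 8.95 CPM after sham surgery. These groups overlapped, with log2 fold changes of 0.09 (adjusted p = 0.88) and 0.19 (adjusted p = 0.616). Cdkn1c encodes p57, the cell cycle inhibitor that marks mature podocytes. In Control kidneys Cdkn1c had 28.0, 30.6 and 28.9 CPM after IR, all below the 42.1, 31.5 and 38.5 CPM after sham surgery. That difference did not pass (log2 -0.38 ± 0.14 SE, adjusted p = 0.109), but did so without Control sham replicate 2 (log2 -0.51, adjusted p = 0.0142). An antisense transcript overlaps 30.7% of the Cdkn1c exons. The VE-PTPiKO groups overlapped for Cdkn1c, at 26.7 to 36.7 CPM after IR and 31.3 to 40.0 CPM after sham surgery. Tcf21, a basic helix-loop-helix factor of podocytes and interstitial cells, had 5.60 to 8.17 CPM in VE-PTPiKO IR libraries and 7.04 to 8.30 CPM in VE-PTPiKO sham libraries. Its levels in Control kidneys were 3.63 to 5.77 CPM after IR and 4.77 to 8.38 CPM after sham surgery. Lmx1b, the homeodomain factor mutated in nail-patella syndrome, had 1.67 to 2.98 CPM, and Dach1, a transcriptional corepressor, had 8.95 to 16.1 CPM over all libraries.

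The cytoskeleton group held 3 of the 5 genes that rose in Control kidneys and the gene that rose in VE-PTPiKO kidneys. All 8 of its fold changes were above 0 in VE-PTPiKO kidneys and 6 of 8 in Control kidneys, where 8020 of 16401 and 7867 of 16257 genes were. The 8 of 8 did not hold in every setting. Over the 17 alternatives the VE-PTPiKO log2 fold change ran down to -0.325 for Inf2, -0.06 for Synpo and -0.032 for Clic3. Myo1e (chr9:70207349-70400067) had 106, 96.8 and 137 CPM in VE-PTPiKO IR libraries and 52.3, 63.0 and 70.0 CPM in VE-PTPiKO sham libraries. It had 125, 135 and 142 CPM in Control IR libraries, against 50.3, 59.8 and 53.6 CPM in Control sham libraries. Every IR library lay well above every sham library of both genotypes. The rise was 1.76-fold in VE-PTPiKO kidneys (log2 0.82 ± 0.17 SE, limma adjusted p = 0.0436) and 2.40-fold in Control kidneys (log2 1.26 ± 0.10 SE, adjusted p = 3.81e-05). The Control call held in all 17 alternatives. The VE-PTPiKO call did not pass without any 1 of VE-PTPiKO IR replicates 1 and 2 and VE-PTPiKO sham replicates 1, 2 and 3 (adjusted p from 0.0847 to 0.163), nor without the 3 libraries highest in Malat1 (log2 0.70, adjusted p = 0.0605).

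Nes (chr3:87971092-87980451) encodes nestin, an intermediate filament protein of podocytes that is also made by endothelial and progenitor cells. It had 40.1, 35.1 and 58.7 CPM in VE-PTPiKO IR libraries and 25.7, 24.5 and 27.8 CPM in VE-PTPiKO sham libraries. The Control IR libraries had 59.4, 72.7 and 55.6 CPM and the Control sham libraries 19.4, 33.4 and 30.4 CPM. IR and sham did not overlap in either genotype. The rise was 2.25-fold in Control kidneys (log2 1.17 ± 0.19 SE, limma adjusted p = 0.00273), and held in all 17 alternatives. In VE-PTPiKO kidneys the log2 fold change was 0.69 ± 0.19 SE (adjusted p = 0.109).

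Actn4 (chr7:28893253-28962280) encodes alpha-actinin-4, an actin crosslinker found in many kidney cells and mutated in familial glomerulosclerosis. Its levels were 313, 334 and 495 CPM in VE-PTPiKO IR libraries and 296, 278 and 296 CPM in VE-PTPiKO sham libraries. In Control kidneys they were 386, 463 and 411 CPM after IR and 257, 288 and 239 CPM after sham surgery. Both IR groups lay above their sham group, narrowly in VE-PTPiKO kidneys apart from replicate 3. The Control rise was 1.57-fold (log2 0.65 ± 0.11 SE, limma adjusted p = 0.00333) and held in all 17 alternatives. The VE-PTPiKO log2 fold change was 0.31 (adjusted p = 0.451) and ran from 0.08 to 0.43 over the alternatives.

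Synpo encodes synaptopodin, an actin-associated protein of foot processes. It had 52.6, 49.2 and 81.9 CPM in VE-PTPiKO IR libraries and 45.4, 53.4 and 57.9 CPM in VE-PTPiKO sham libraries. The Control values were 57.5, 62.7 and 59.8 CPM after IR and 48.4, 63.4 and 51.3 CPM after sham surgery. Synpo thus overlapped between IR and sham in both genotypes (log2 0.14 and 0.12, adjusted p = 0.81 and 0.612). Clic5, a chloride intracellular channel family protein that associates with ezrin, lay above sham in every IR library without passing. It had 133 to 157 CPM after IR and 118 to 126 CPM after sham surgery in VE-PTPiKO kidneys (log2 0.17, adjusted p = 0.589), and 138 to 148 CPM and 113 to 124 CPM in Control kidneys (log2 0.28, adjusted p = 0.1). The other members of the group were Inf2, a formin mutated in glomerulosclerosis, at 5.86 to 16.3 CPM, Rhpn1 at 20.6 to 34.1 CPM, and Clic3, a relative of Clic5, at 2.25 to 4.86 CPM over all libraries. None of these 3 passed in either genotype.

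**Figure D2:**
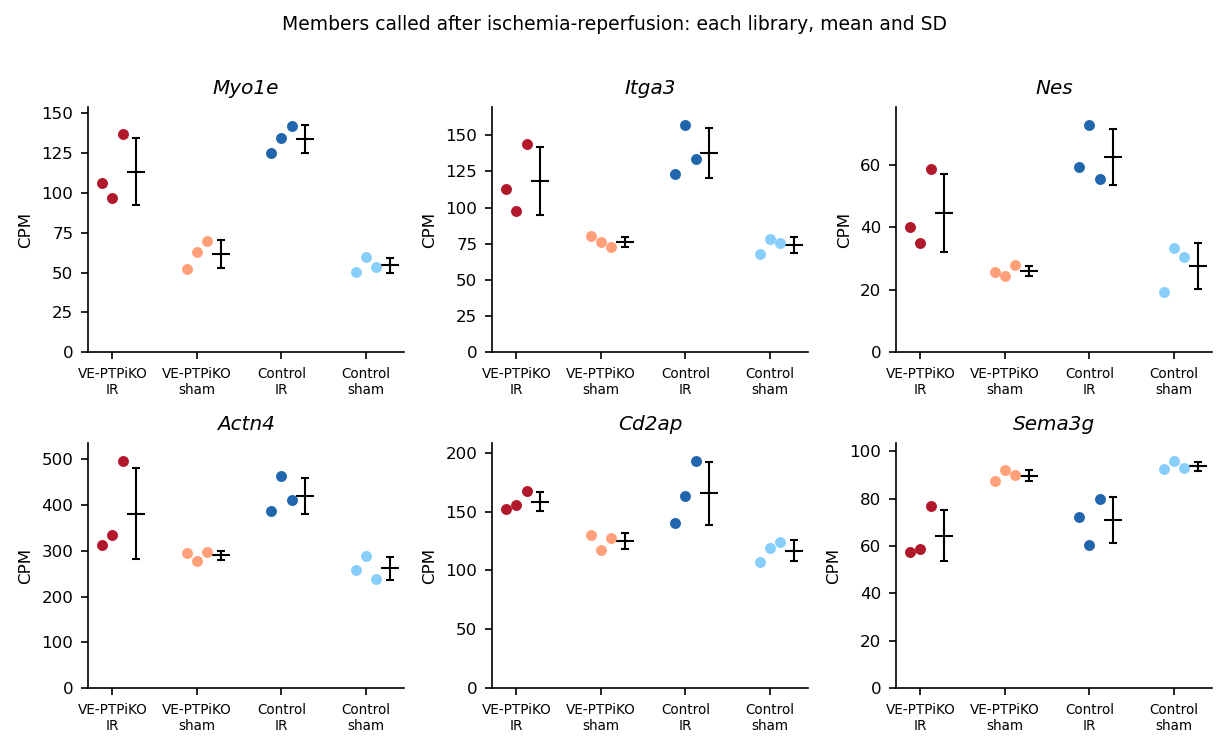
CPM of the 6 genes called after IR in either genotype, 1 panel a gene, with a point for each library and a bar for the mean and SD of each group (n = 3). In Myo1e the IR points of both genotypes start at 96.8 CPM, above the highest sham point at 70.0 CPM.

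Signalling genes gave the call that fell. Sema3g (chr14:31217872-31229511) had 57.3, 59.0 and 76.7 CPM in VE-PTPiKO IR libraries and 87.2, 92.0 and 89.8 CPM in VE-PTPiKO sham libraries. In Control kidneys it had 72.1, 60.6 and 80.0 CPM after IR and 92.3, 95.8 and 92.7 CPM after sham surgery. The sham libraries were tightly grouped, and all 6 IR libraries lay below all 6 sham libraries. The fold change was 1.36-fold lower in Control kidneys (log2 -0.44 ± 0.12 SE, limma adjusted p = 0.0321) and 1.46-fold lower in VE-PTPiKO kidneys (log2 -0.54 ± 0.14 SE, adjusted p = 0.0885). The Control call was lost without Control IR replicate 1 or 2 or Control sham replicate 1 or 3 (adjusted p from 0.0591 to 0.191). The VE-PTPiKO difference passed without VE-PTPiKO IR replicate 3 (log2 -0.65, adjusted p = 0.00832). Sema3g is also expressed by arterial endothelium.

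Trpc6 encodes a calcium-permeable channel at the slit diaphragm, and it was the lowest of the 30 genes, with 6 to 27 reads a library. It had 1.36, 1.11 and 1.43 CPM in VE-PTPiKO IR libraries and 0.564, 1.07 and 0.330 CPM in VE-PTPiKO sham libraries. In Control kidneys Trpc6 had 1.58, 1.15 and 0.771 CPM after IR and 1.05, 0.984 and 0.404 CPM after sham surgery. The VE-PTPiKO groups did not overlap, although the gap was 0.04 CPM, and the Control groups did. At this depth the log2 fold changes of 1.01 (95% confidence interval 0.06 to 1.96, adjusted p = 0.288) and 0.52 (-0.44 to 1.47, adjusted p = 0.537) were not distinguishable from 0 after adjustment. Plce1, a phospholipase C mutated in childhood nephrotic syndrome, ranged from 16.6 to 25.4 CPM, with log2 fold changes of 0.11 and 0.08.

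No basement membrane gene passed the test in either genotype. Col4a3 and Col4a4 lie head to head on chromosome 1, at chr1:82586920-82722059 on the plus strand and chr1:82450722-82586849 on the minus strand, with the 70-base interval printed above between their annotated starts. Col4a3 had 335, 404 and 528 CPM in VE-PTPiKO IR libraries, all below the 614, 723 and 723 CPM of the VE-PTPiKO sham libraries. In Control kidneys it had 457, 510.2 and 577 CPM after IR and 468, 682 and 564 CPM after sham surgery, which overlapped. The log2 fold change was -0.78 ± 0.18 SE in VE-PTPiKO kidneys (limma adjusted p = 0.0609) and -0.17 ± 0.14 SE in Control kidneys (adjusted p = 0.525). The VE-PTPiKO difference passed in 6 of 17 alternatives, among them without VE-PTPiKO IR replicate 3 (log2 -0.93, adjusted p = 0.00564) and DESeq2 (log2 -0.76, adjusted p = 0.00325), and its adjusted p ran up to 0.28. The test of the difference between genotypes gave a log2 difference of -0.60 (VE-PTPiKO minus Control, 95% confidence interval -1.11 to -0.09, unadjusted p = 0.024, adjusted p = 0.999).

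Col4a4 differed less. It had 256, 306 and 354 CPM in VE-PTPiKO IR libraries and 361, 351 and 379.7 CPM in VE-PTPiKO sham libraries, with overlapping groups (log2 -0.32, adjusted p = 0.358). Its Control values were 296, 299.9 and 354 CPM after IR and 321, 387 and 309.9 CPM after sham surgery (log2 -0.13, adjusted p = 0.567). The ratio of Col4a3 to Col4a4 CPM, chosen after the values were seen, was 1.31, 1.32 and 1.49 in VE-PTPiKO IR libraries and 1.70, 2.06 and 1.90 in VE-PTPiKO sham libraries. In Control kidneys the ratio was 1.54, 1.70 and 1.63 after IR and 1.46, 1.76 and 1.82 after sham surgery. The IR and sham ratios did not overlap in VE-PTPiKO kidneys and overlapped in Control kidneys. A two-sided exact permutation test gave p = 0.1 in VE-PTPiKO kidneys, the smallest p that 3 libraries against 3 allow, and p = 0.7 in Control kidneys, and with the ratio picked from these values it supports nothing further. A processed transcript on the opposite strand overlaps 5.6% of the Col4a3 exons.

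**Figure D3:**
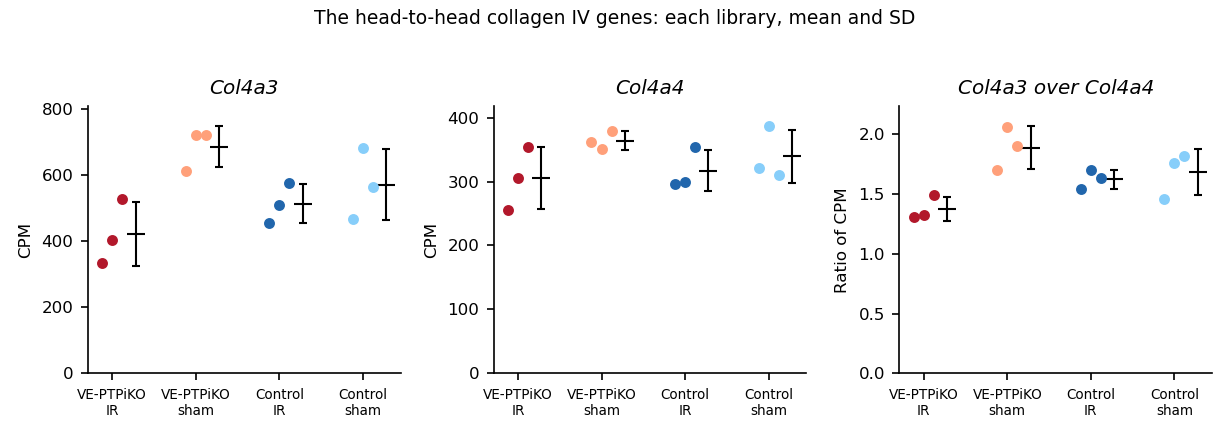
Col4a3 CPM, Col4a4 CPM and their ratio in each library, with the mean and SD of each group (n = 3). The VE-PTPiKO IR points for Col4a3, 335 to 528 CPM, lie below the VE-PTPiKO sham points, 614 to 723 CPM.

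Col4a5, the X-linked partner chain, did not pass in either genotype. It had 101, 106 and 103 CPM in VE-PTPiKO IR libraries and 107, 100.3 and 101 CPM in VE-PTPiKO sham libraries. Control kidneys had 97.9, 97.6 and 121 CPM after IR and 88.0, 101 and 90.9 CPM after sham surgery. Its log2 fold changes were -0.04 (95% confidence interval -0.30 to 0.23) and 0.14 (-0.10 to 0.38).

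The laminin genes varied widely between libraries of a group. Lamb2, the beta 2 chain lost in Pierson syndrome, had 70.4, 85.0 and 131 CPM in VE-PTPiKO IR libraries and 92.2, 128 and 119.9 CPM in VE-PTPiKO sham libraries. In Control kidneys Lamb2 had 70.7, 80.7 and 94.1 CPM after IR and 82.9, 125 and 92.9 CPM after sham surgery. The groups overlapped (log2 -0.34, adjusted p = 0.548, and -0.31, adjusted p = 0.231). Lama5, the alpha 5 chain, had 160.1, 149 and 531 CPM in VE-PTPiKO IR libraries and 141, 266 and 203 CPM in VE-PTPiKO sham libraries. Control IR libraries had 189.8, 219.9 and 249 CPM of Lama5 and Control sham libraries 124, 254 and 131 CPM. The high values in VE-PTPiKO IR, VE-PTPiKO sham and Control sham were in the 3 libraries with the most Malat1. The log2 fold change in Control kidneys was 0.41 (adjusted p = 0.29), and 0.73 without Control sham replicate 2 (adjusted p = 0.00287). In VE-PTPiKO kidneys it was 0.19 ± 0.44 SE (adjusted p = 0.893). Npnt, nephronectin, a basement membrane ligand of integrin alpha 8 beta 1, had 111 to 144 CPM after IR and 91.3 to 156 CPM after sham surgery in VE-PTPiKO kidneys, and 101 to 179 CPM and 89.3 to 116 CPM in Control kidneys. Its Control log2 fold change of 0.41 (adjusted p = 0.175) passed without Control IR replicate 1 (0.59, adjusted p = 0.0423).

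Of the matrix receptors, Itga3 rose in Control kidneys and Dag1 did not pass. Itga3 (chr11:95044474-95076714) encodes integrin alpha 3, the laminin receptor that anchors podocytes and that tubule cells also carry. It had 113, 97.8 and 144 CPM in VE-PTPiKO IR libraries and 80.1, 76.4 and 73.1 CPM in VE-PTPiKO sham libraries. The Control IR libraries had 123, 157 and 134 CPM and the Control sham libraries 68.0, 78.6 and 75.8 CPM. All 6 IR libraries lay above all 6 sham libraries. The Control rise was 1.81-fold (log2 0.86 ± 0.12 SE, limma adjusted p = 0.000773) and held in all 17 alternatives. In VE-PTPiKO kidneys the log2 fold change was 0.56 ± 0.15 SE (adjusted p = 0.0995), which passed without VE-PTPiKO IR replicate 3 (0.43, adjusted p = 0.0428). Dag1, dystroglycan, had 123 to 186 CPM after IR and 176 to 197 CPM after sham surgery in VE-PTPiKO kidneys (log2 -0.37, adjusted p = 0.336), and 147 to 194 CPM and 152 to 182 CPM in Control kidneys (log2 -0.04, adjusted p = 0.895). Without VE-PTPiKO IR replicate 3 the VE-PTPiKO value for Dag1 was -0.51 (adjusted p = 0.0368).

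Between genotypes, no member passed the test. In sham kidneys 0 of the 30 genes were called for VE-PTPiKO against Control by limma, as were 0% of 16346 genes, with 0 of the 30 and 267 of all genes at an unadjusted p under 0.05. Neither edgeR nor DESeq2 called any of the 30, and they called 0 and 1 of all genes. Log2 differences of the 30 genes ran from -0.60 to 0.38, with a median size of 0.13, and 0.13 over all genes. After IR the count was again 0 of 30 by limma, edgeR and DESeq2, against 0% of all genes by limma, with a range from -0.54 to 0.56. At an unadjusted p under 0.05 there were 2 of the 30 and 709 of all genes: Tcf21, at 6.78 ± 1.30 CPM in VE-PTPiKO IR and 4.52 ± 1.11 CPM in Control IR (SD, n = 3 each, log2 0.56, adjusted p = 1), and Nes, at 44.7 ± 12.4 CPM and 62.6 ± 8.96 CPM (log2 -0.54, adjusted p = 1).

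No gene lay wholly above Control in sham kidneys and 2, Clic3 and Sema3g, lay wholly below, where 2.67% and 2% of all genes did. For Sema3g that separation amounted to 89.7 ± 2.39 CPM in VE-PTPiKO sham and 93.6 ± 1.91 CPM in Control sham. For Clic3 it was 2.77 ± 0.802 CPM and 4.09 ± 0.337 CPM. After IR none of the 30 lay wholly above or below Control IR, where 4.83% and 3.68% of all genes did. For the core podocyte genes the intervals after IR were -0.26 to 0.38 for Nphs1, -0.13 to 0.37 for Podxl and -0.51 to 0.24 for Wt1 on the log2 scale, VE-PTPiKO over Control.

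The difference of the IR response between genotypes was called for 0 of the 30 genes by limma, edgeR and DESeq2, as for 0% of all genes by limma. At an unadjusted p under 0.05 there were 2 of the 30 and 433 of all genes, Col4a3 above and Myo1e (log2 -0.45, VE-PTPiKO minus Control, unadjusted p = 0.0438, adjusted p = 0.999). The greater number of calls in Control than in VE-PTPiKO kidneys is thus not shown to be a difference between genotypes.

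**Figure D4:**
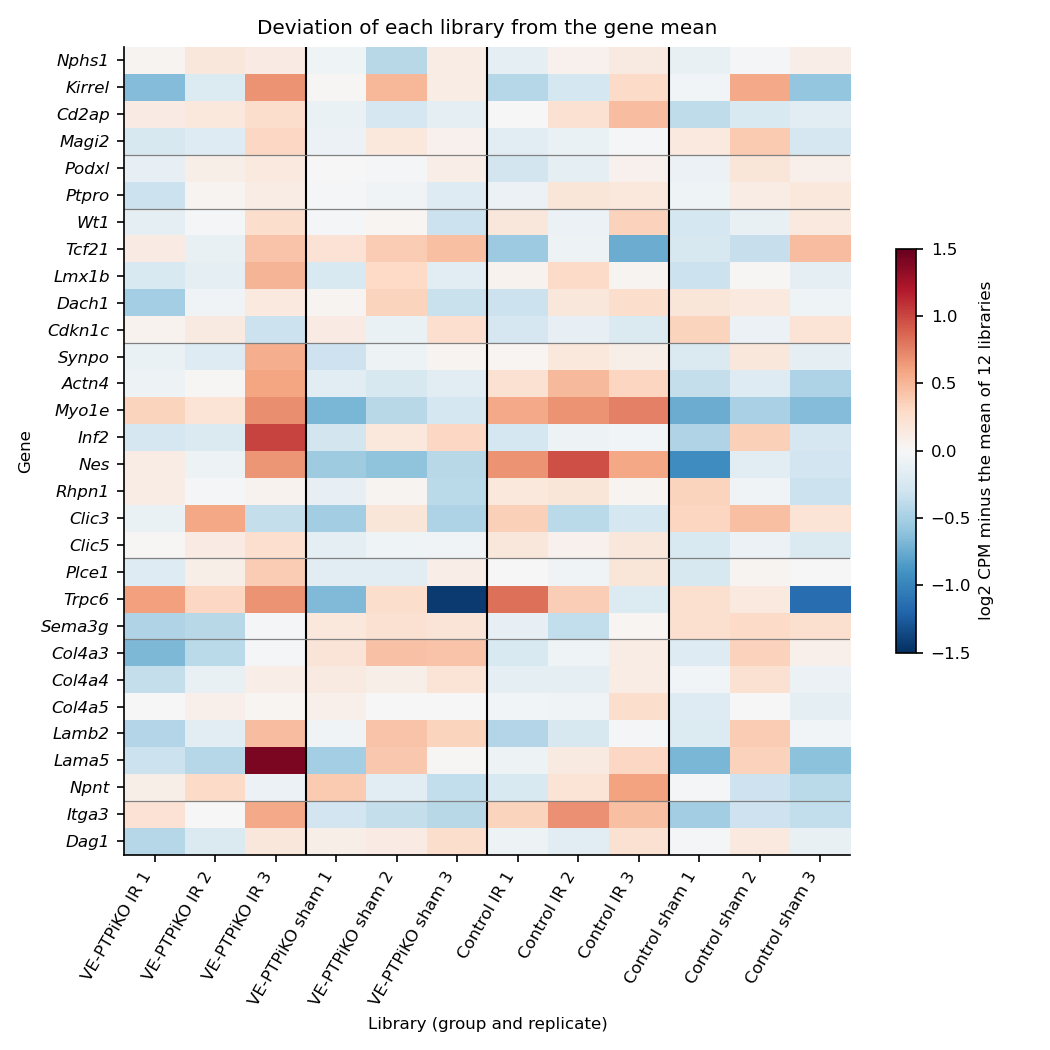
Log2 CPM of each gene in each library minus the gene's mean over the 12 libraries, with genes in rows by role (grey lines) and libraries in columns by group (black lines). VE-PTPiKO IR replicate 3 is red for most genes, with Lama5 the deepest, while Myo1e is red in every IR library and blue in every sham library.

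Per kilobase of exon, which allows levels of different genes to be compared, the 30 genes spanned a wide range. Col4a3 was the highest with a median of 54.8 CPM per kb over the 12 libraries, followed by Actn4 at 49.7, Podxl at 36.2 and Col4a4 at 31.6 CPM per kb. The ranges of Col4a3, 33.6 to 72.6 CPM per kb, and Actn4, 39.1 to 80.9 CPM per kb, overlapped, so their order is not separated. Itga3, Lamb2, Col4a5, Clic5 and Myo1e lay close together at medians of 14.6 to 15.6 CPM per kb. Nphs1 had 4.35, Wt1 1.29 and Plce1 1.22 CPM per kb. Lmx1b at 0.412 and Trpc6 at 0.209 CPM per kb were the lowest.

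**Figure D5:**
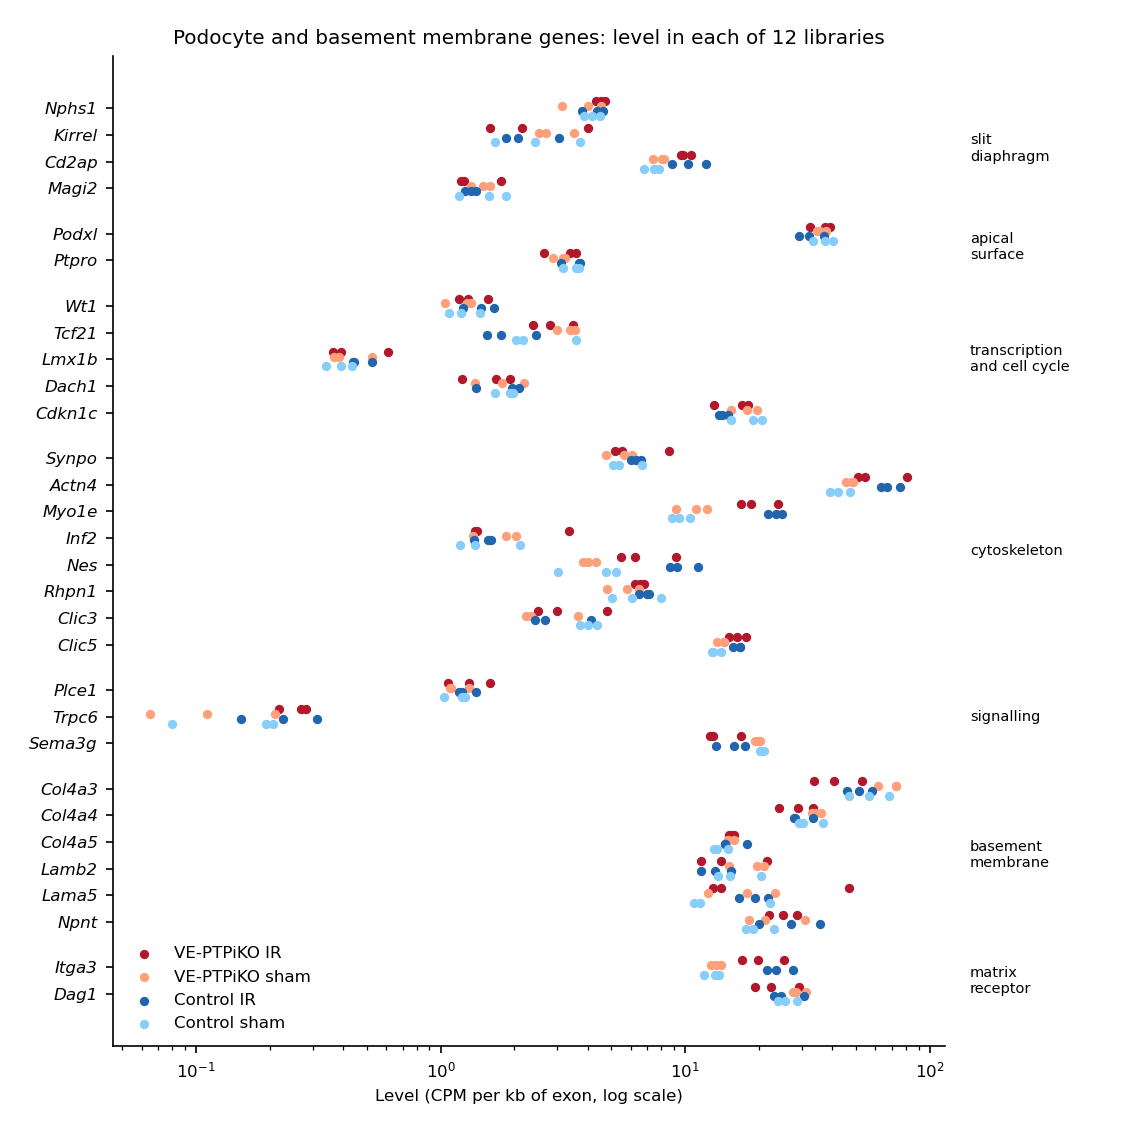
Level of each of the 30 genes in CPM per kb of exon (log axis), with 1 point for each of the 12 libraries, coloured by group, and genes ordered by role. Levels run from Trpc6, at a median of 0.209, to Col4a3, at 54.8 CPM per kb, and most groups overlap within a gene.

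Of a further list of 44 podocyte genes, 43 could be tested in the same libraries. In VE-PTPiKO kidneys 2 rose and 2 fell after IR, and in Control kidneys 7 rose and 3 fell, with median log2 fold changes of 0.06 and 0.12. Beside this list and those that follow, limma called 1.92% of all genes up and 0.793% down in VE-PTPiKO kidneys. In Control kidneys the shares were 7.48% up and 4.02% down. Ddn, which encodes dendrin, a slit diaphragm protein that moves to the nucleus in injured podocytes, was a low gene. It had 3.08, 2.95 and 3.76 CPM in VE-PTPiKO IR libraries and 4.98, 6.42 and 8.30 CPM in VE-PTPiKO sham libraries. In Control kidneys Ddn had 2.28, 1.45 and 2.53 CPM after IR and 5.86, 7.53 and 6.64 CPM after sham surgery. It was 3.27-fold lower in Control kidneys (log2 -1.71 ± 0.25 SE, limma adjusted p = 0.00133), and its VE-PTPiKO log2 fold change was -1.02 ± 0.26 SE (adjusted p = 0.0806), passing without VE-PTPiKO IR replicate 3 (log2 -1.10, adjusted p = 0.0324). An antisense RNA overlaps 4.7% of its exons. Gas1, a membrane protein that binds hedgehog ligands, fell 2.10-fold in VE-PTPiKO kidneys (adjusted p = 0.00957) and 1.65-fold in Control kidneys (adjusted p = 0.0244), and a noncoding RNA overlaps 19.9% of its exons. The Gas1 calls were lost without VE-PTPiKO sham replicate 2 or 3 (adjusted p = 0.0598 and 0.0672), and without Control IR replicate 2 or 3 or Control sham replicate 1 (adjusted p from 0.0687 to 0.0946).

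Among those that rose, Ezr encodes ezrin, which links podocalyxin to actin in podocytes and also builds the tubule brush border. It had 809.8, 883 and 959.9 CPM in VE-PTPiKO IR libraries and 494, 512 and 524 CPM in VE-PTPiKO sham libraries. In Control kidneys Ezr had 1004, 1004 and 914 CPM after IR and 406, 482 and 339.7 CPM after sham surgery. All IR libraries exceeded all sham libraries, by 1.67-fold in VE-PTPiKO kidneys (adjusted p = 0.0228) and 2.35-fold in Control kidneys (adjusted p = 0.000199). The VE-PTPiKO call was lost without any 1 library other than VE-PTPiKO IR replicate 3 (adjusted p from 0.0754 to 0.127). Cryab, a small heat shock protein, rose 1.90-fold in VE-PTPiKO kidneys (adjusted p = 0.0334) and 1.55-fold in Control kidneys (adjusted p = 0.0185), with 17.0% of its exons overlapped by Hspb2. The Cryab calls were lost without VE-PTPiKO IR replicate 1 or 2 or VE-PTPiKO sham replicate 2 or 3 (adjusted p from 0.0711 to 0.178), and without Control IR replicate 1 or 2 or Control sham replicate 3 (adjusted p from 0.0558 to 0.108). Cryab was also lost in VE-PTPiKO kidneys without the 3 libraries highest in Malat1 (limma adjusted p = 0.0543). Iqgap1, a nephrin-binding scaffold, rose 1.45-fold in Control kidneys (adjusted p = 0.00821), Myh9, the non-muscle myosin heavy chain, 1.76-fold (adjusted p = 0.0126), and the serine protease gene Htra1 1.38-fold (adjusted p = 0.0275). Without Control IR replicate 2 the adjusted p was 0.0674 for Iqgap1, 0.0747 for Myh9 and 0.13 for Htra1. Myh9 was also lost without Control sham replicate 3 (0.0664), and Htra1 without Control IR replicate 1 (0.0705) or 3 (0.0801). In 1 model of all 12 libraries the limma adjusted p was 0.0519 for Myh9 and 0.0576 for Htra1. These genes are expressed well beyond podocytes.

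Of 20 other basement membrane and adhesion genes, 0 were called in VE-PTPiKO kidneys by limma and 3 rose in Control kidneys. Of all genes, 1.92% rose in VE-PTPiKO kidneys and 7.48% in Control kidneys. The median log2 fold changes of the 20 genes were -0.04 and 0.25. Lamc1, the laminin gamma 1 chain, rose to 166 ± 34.5 CPM in Control IR, against 92.0 ± 20.1 CPM in Control sham (1.77-fold, limma adjusted p = 0.00912, and 0.0574 without Control IR replicate 2). Col18a1, which encodes the source of endostatin, rose 1.52-fold (adjusted p = 0.0225). That call was lost without Control IR replicate 2 or 3 or Control sham replicate 1 or 3 (adjusted p from 0.0581 to 0.108). Vcl, the focal adhesion protein vinculin, rose 2.47-fold (adjusted p = 7.06e-05), with 25.5% of its exons overlapped by Ap3m1. In VE-PTPiKO kidneys its log2 fold change was 0.735 (1.66-fold, limma adjusted p = 0.1). That difference passed in 5 of 17 alternatives, and its adjusted p ran up to 0.349. It passed without VE-PTPiKO IR replicate 3 (log2 0.509, adjusted p = 0.0285) and by DESeq2 (log2 0.768, adjusted p = 0.0135).

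Markers of the other glomerular and kidney cells gave the setting. None of 6 glomerular endothelial markers was called in either genotype, and they summed to 582.5 to 644 CPM in VE-PTPiKO IR, 551 to 634 CPM in VE-PTPiKO sham, 513 to 608 CPM in Control IR and 508 to 565 CPM in Control sham. Of 6 mesangial markers Fhl2 alone was called, 1.88-fold higher after IR in Control kidneys (adjusted p = 0.00384). Of 4 parietal epithelial markers Cldn1 rose 2.25-fold in VE-PTPiKO kidneys and 2.21-fold in Control kidneys (adjusted p = 0.0351 and 0.0004). None of 8 proximal tubule markers was called in either genotype, and of 8 distal nephron and collecting duct markers Foxi1 fell in Control kidneys, 1.93-fold (adjusted p = 0.0016).

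Injured tubule markers rose for 4 of 5 in VE-PTPiKO kidneys and 5 of 5 in Control kidneys, and summed to 512 to 659 CPM in VE-PTPiKO IR, 79.7 to 104 CPM in VE-PTPiKO sham, 574 to 664 CPM in Control IR and 76.3 to 101 CPM in Control sham. Of 8 leukocyte markers 1 rose in VE-PTPiKO kidneys, Cd68, and 2 in Control kidneys, Cd68 and Lyz2. The macrophage marker Cd68 had 10.3 ± 1.51 CPM in VE-PTPiKO IR and 1.91 ± 0.552 CPM in VE-PTPiKO sham, and 10.7 ± 0.647 CPM in Control IR and 1.84 ± 0.306 CPM in Control sham (SD, n = 3 each). The lymphocyte markers Cd3e and Cd79a were at 0 in at least 1 sham library of each genotype. Of 3 red cell markers 0 passed in VE-PTPiKO kidneys and 3 rose in Control kidneys. They summed to 115 to 511 CPM in VE-PTPiKO IR, 70.5 to 131 CPM in VE-PTPiKO sham, 298 to 553 CPM in Control IR and 56.1 to 166 CPM in Control sham. The part of these cells in the higher Myo1e, Itga3, Nes, Actn4 and Cd2ap was not tested.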

How the data were processed

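Total RNA of whole kidney was sequenced from TruSeq libraries, per the labels' protocols. The submitters' processing notes name FastQC, STAR, HTSeq and DESeq2 with the build mm10; no version, annotation or strand setting is given in what was used here. The authors deposited 2 tables, 1 per genotype, normalized separately, each with 23493 lines of which 182 identifiers recur; 23286 genes were kept. Library columns hold deposited normalized counts, a signal equal to whole reads over a size factor, since 100.0% of values came out whole within 0.02. The authors' log2 fold changes, p-values and test score per gene, as deposited, were used only to describe.

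Each IR comparison was fitted within its table with limma 3.58.1 (R 4.3.3) and an intensity trend. The scale was log2 with a pseudocount of 1; genes averaging under 1 were left out. P-values had Benjamini-Hochberg adjustment over all genes. The pseudocount understates changes of low genes. Contrasts across tables used reads recovered by undoing the size factors (0.8863 to 1.2125), rescaled by a common median of ratios over 14828 genes, in 1 model of 12 libraries. CPM were computed from recovered reads, and lengths and overlaps came from GENCODE M21. edgeR 4.0.16 and DESeq2 1.42.0 on recovered reads were alternatives, beside another scaling, filters, pseudocounts, a replicate block, a length correction and leaving libraries out. The fit was tested on simulated data. Python 3.11.15, pandas 2.3.3 and SciPy 1.17.1 made the summaries.

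The 30 genes, their roles and all other lists were chosen with earlier results of these data known. All 30 are named; values are given in full for called genes and 12 genes picked by role, with the remaining genes by range. From the 10 further lists called genes are named, at most 8 a list. A gene of these lists and a motif are not reported here. All 30 passed the filter. The 2 single-cell samples were not used.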

Additional observations from a re-analysis of the deposited data

How the results depend on the processing

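For members called in VE-PTPiKO kidneys the count depended on the setting: against 1 of 30, it was 5 by DESeq2, 2 without the 3 libraries highest in Malat1, 5 with the trend on transcript length removed and 4 in 1 model of all 12 libraries. Leaving out 1 library gave 0 to 5, with 5 without VE-PTPiKO IR replicate 3 and 0 without any other VE-PTPiKO library. In Control kidneys the count of 6 ran from 4 to 8 over all 17 alternatives. Replicate numbers did not pair the samples (correlations of same-numbered libraries 0.464, -0.297 and 0.111 in VE-PTPiKO and 0.095, -0.023 and -0.114 in Control); with the replicate block 3 members were called in VE-PTPiKO kidneys and 6 in Control kidneys. The genotype contrasts and the difference of response gave 0 members in every alternative run. No gene changed sign while called. Over all genes, VE-PTPiKO calls numbered 315 up and 130 down by limma, 622 and 391 by DESeq2, and 946 and 979 without VE-PTPiKO IR replicate 3. They were 484 and 369 without the 3 libraries highest in Malat1 and 488 and 258 with the length trend removed. In 1 model of all 12 libraries they were 624 and 395, and with the replicate block 376 and 228. Control calls numbered 1216 up and 654 down by limma. They were 610 and 252 without Control IR replicate 2 (4 members) and 1361 and 649 without Control sham replicate 2 (8 members). The cause of these shifts was not tested. Depth limits the low genes, with Trpc6 at 6 to 27 reads a library.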

Other observations

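VE-PTPiKO IR replicate 3 stood above its group for several genes of different roles. Lama5 had 531 CPM there and 149 to 160.1 CPM in the other VE-PTPiKO IR libraries, Inf2 had 16.3 CPM against 6.76 and 6.89 CPM, and Kirrel had 29.8 CPM against 11.9 and 16.1 CPM. Cdkn1c went the other way, with 26.7 CPM there and 34.7 and 36.7 CPM in the others. These genes were picked after their values were seen, and no comparison rests on them.

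In sham kidneys all 6 basement membrane genes had a log2 difference above 0 for VE-PTPiKO over Control, with a median of 0.18. Over all genes tested, 8501 of 16346 were above 0, with a median of 0.01. None of the 6 passed the limma test, and none had an unadjusted p under 0.05. After IR 2 of the 6 were above 0, with a median of -0.07, beside 7589 of 16346 genes tested.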
